A study of Caenorhabditis elegans with 24 samples.

Results

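The genes described here encode the Hedgehog-related proteins and the patched-related proteins of Caenorhabditis elegans. They were every gene in the count files whose WormBase symbol starts with wrt- (warthog), grd- (groundhog), grl- (ground-like), hog-, qua- (quahog) or ptr- (patched-related). The files held 85 such genes, made up of 10 wrt, 17 grd, 32 grl, 24 ptr, hog-1 and qua-1. Of these, 81 were above 1 CPM (counts scaled to the reads on genes of each library) in at least 4 of 24 libraries and were tested among 19050 genes. The 4 that were not kept were grl-11, grl-19, grl-30 and the pseudogene grl-32.

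Expression was measured by mRNA-seq in first-stage (L1) larvae of strain LRB269. This strain carries the alleles glc-1(pk54), avr-14(vu47), avr-15(vu227) and glc-3(ok321) in genes for ivermectin-sensitive chloride channel subunits. Its transgene dukIs10 returns avr-15 under the pharyngeal muscle promoter of myo-2, a design meant to let ivermectin act on the pharynx and keep larvae from ingesting. The transgene also carries mCherry under the same promoter and GFP under that of hlh-8. Every condition used this strain, and each library came from a culture of many larvae. Fed larvae (F) and starved larvae (S) were sampled at 1 h without ivermectin. Larvae in 5 ng/mL ivermectin with food (IvF) or without it (IvS) were sampled at 1 h and at 24 h. Times count from the addition of food, 24 h after embryos were prepared by hypochlorite treatment. Ivermectin, or its solvent DMSO in F and S, was added at culture setup. The study's general methods give a higher dose as the minimal one that kept this strain from eating. Whether larvae ingested any food at 5 ng/mL was not tested here. Food was Escherichia coli HB101 at 25 mg/mL, and each condition had 4 libraries, numbered 1 to 4 without ivermectin and carrying a series of other numbers with it. The latter are named here by their labels, such as I_1hr_181 (IvS) or IF_1hr_181 (IvF).

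Nematodes lack a canonical Hedgehog ligand and a Smoothened receptor, but they have large families of secreted Hedgehog-related proteins and of transmembrane proteins with a sterol-sensing domain that resemble Patched. Some Hedgehog-related proteins, among them HOG-1, QUA-1 and several warthogs, end in the self-cleaving Hog domain that they share with Hedgehog, whereas most ground-like proteins do not. Many members of both families are made by epithelia that line the body surface, and they are known for roles in molting, in the cuticle and in the apical extracellular matrix. Bulk RNA does not tell fewer cells of a type from less RNA per cell.

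The 8 libraries without ivermectin held 8690378 to 14139935 reads on genes, and the 16 with ivermectin held 14498061 to 19448998. Reads outside any feature made up 2.67 to 3.70% and 4.39 to 11.3%, respectively, and ambiguous reads 6.59 to 10.2% and 2.97 to 3.68%. All 7 epidermis markers were found, with summed levels of 282 to 433 CPM without ivermectin and 530 to 808 CPM with it. The 4 pharynx markers summed to 360 to 892 CPM and 2073 to 5882 CPM. Replicate numbers and ivermectin coincide, so the drug and the series of cultures or libraries cannot be told apart. CPM values below are not scaled further, whereas log2 fold changes use TMM scaling, with factors from 0.62 to 1.30. A gene counted as changed when its Benjamini-Hochberg adjusted p was below 0.05 and its log2 fold change was beyond 0.5 either way in edgeR's quasi-likelihood test, which also gave every adjusted p in this text. The methods call the replicates biological, and the labels do not say how they were separated, so p-values measure the spread between these libraries.

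Levels spanned a wide range, and 48 of the 81 genes had a mean below 5 CPM. By mean CPM the 5 most abundant were ptr-23, ptr-24, grd-10, ptr-21 and ptr-5. Per kilobase of exon, by the WBcel235 models that matched 80 of them, the order by mean over all 24 libraries was led by grd-10 (132 CPM per kb), grd-5 (115), grd-13 (65.8) and grd-3 (48.8), and then by grl-4 (39.5) and ptr-23 (37.9). Summed over families, ptr genes made up 650.6 ± 102 CPM in S and 633 ± 135 CPM in F (SD, n = 4). The grd sum was 564 ± 274 CPM in S, 353 ± 113 CPM in F, 243 ± 88.7 CPM in IvS at 1 h and 76.1 ± 34.7 CPM in IvF at 24 h (SD, n = 4).

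Feeding for 1 h changed both families in both directions. Among the 81 genes 17 passed the thresholds in F against S, 6 higher and 11 lower, which is 21%, beside 29.0% of all genes tested (13.6% higher and 15.4% lower). Among the 33 that averaged at least 5 CPM, tested with that filter, 12 passed (36.4%), beside 41.7% of all such genes. The median log2 fold change was 0.11 over the 81 genes and -0.07 over all genes. The share changed was thus no higher than that of all genes. The ptr family contributed 8, of which 3 rose and 5 fell, the grd family 5, the grl family 4, and no wrt gene passed in edgeR, where 2 had an unadjusted p below 0.05.

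The patched-related gene ptr-3 fell furthest among genes of at least 5 CPM. It stood at 48.7, 66.4, 51.4 and 39.8 CPM in S and at 7.85, 12.8, 13.4 and 12.8 CPM in F. The libraries of the 2 conditions did not overlap, and the log2 fold change was -2.36 ± 0.22 (SE, adjusted p = 9.2e-09, edgeR). In ivermectin ptr-3 was at 86.3, 79.3, 82.0 and 68.4 CPM in IvS and at 62.2, 41.6, 50.8 and 41.0 CPM in IvF at 1 h. It was lower with food there too, by 0.67 ± 0.20 on the log2 scale (adjusted p = 0.046, edgeR), a call lost when 6 of the 8 libraries were each omitted in turn. At 24 h the values ran from 53.7 to 62.4 CPM in IvS and from 51.9 to 61.5 CPM in IvF, and they overlapped.

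The other ptr genes that fell with feeding had smaller changes. ptr-11 was at 45.5, 50.4, 42.8 and 56.4 CPM in S and at 18.6, 28.3, 32.3 and 31 CPM in F, without overlap (log2 fold change -1.03 ± 0.14, adjusted p = 3.6e-06, edgeR). ptr-24 was at 81.0, 103, 68.6 and 97.7 CPM in S and at 56.5, 53.2, 73.6 and 48.2 CPM in F, where the ranges overlapped (-0.77 ± 0.17). ptr-21 was at 29.5, 41.6, 33.5 and 67.7 CPM in S and at 24.4, 35.7, 30.1 and 31.3 CPM in F, and S replicate 4 was the highest (-0.67 ± 0.15, and -0.45 without that library, which is not past the fold threshold). ptr-23, the most abundant member by CPM and known as a partner of the mucin-like protein OSM-8 in the epidermal response to osmotic stress, was at 164, 180.6, 140 and 85.8 CPM in S and at 83.9, 96.5, 109 and 118 CPM in F. Its call (-0.71 ± 0.24, adjusted p = 0.024, edgeR) was lost when 5 of the 8 libraries were each omitted in turn.

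**Figure D1:**
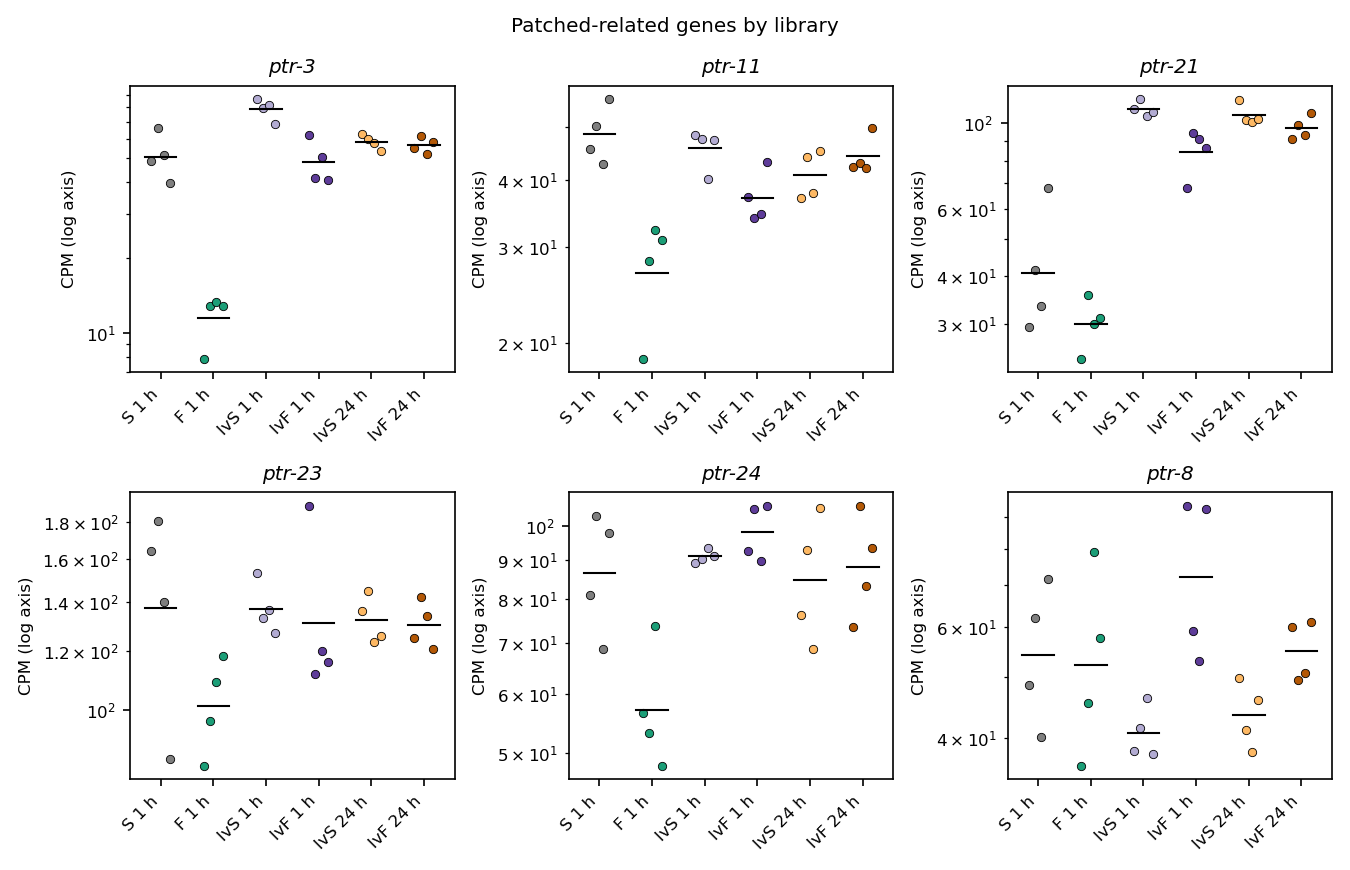
CPM on a log axis in each library (points) for 6 patched-related genes, by condition; the horizontal lines are geometric means of 4 libraries. ptr-3 in F, at 7.85 to 13.4 CPM, lies below every other library.

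Patched-related genes that rose with feeding were ptr-22, ptr-18 and ptr-2. ptr-18, a gene linked in this animal to clearing the ground-like protein GRL-7 from the apical matrix and to quiescence of progenitor cells in starved L1 larvae, was at 5.30, 6.55, 3.15 and 4.69 CPM in S and at 7.14, 11.5, 13.3 and 13.4 CPM in F. The conditions did not overlap (log2 fold change 1.01 ± 0.24, adjusted p = 0.0018, edgeR). grl-7 itself ran from 0.752 to 2.75 CPM in S and from 2.40 to 4.37 CPM in F, with overlap (1.16 ± 0.59, adjusted p = 0.14, edgeR). ptr-2 ran from 4.23 to 11.9 CPM in S and from 11.2 to 20.9 CPM in F (0.86 ± 0.21). ptr-4, which is needed for normal molting, ran from 1.83 to 16.8 CPM in S and from 9.28 to 16.9 CPM in F and did not pass. ptr-10, a glial gene, stayed at or below 6.67 CPM in every library.

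Among the ligand-like genes, grl-10 rose from 5.02, 5.15, 3.65 and 4.12 CPM in S to 10.1, 10.0, 10.6 and 14.7 CPM in F, without overlap (1.13 ± 0.20, adjusted p = 7.9e-05, edgeR). Its exons overlap those of the antisense gene rpl-39, and without strand in the library the reads of the 2 genes cannot be told apart. hog-1, the sole hog gene, was at 4.31, 2.47, 1.49 and 2.63 CPM in S and at 5.09, 6.21, 5.09 and 3.80 CPM in F and just missed the threshold (0.69 ± 0.27, adjusted p = 0.051, edgeR). The warthog genes wrt-5 and wrt-10 did not pass: wrt-5 ran from 15.8 to 33.5 CPM in S and from 20.2 to 26.8 CPM in F, and wrt-10 from 2.07 to 16.1 CPM and from 10.5 to 22.8 CPM. The other 5 called genes, whose means were under 5 CPM, were named after their values were seen. Among them grd-12 rose (1.70 ± 0.38), while grd-4, grl-23, grl-24 and grl-28 were lower in F, at low levels. Exons of grd-12 overlap those of xbx-1 and of the antisense gene F02D8.1. Exons of 29 of the 81 genes overlap another gene, hog-1, grl-15, grl-20, grl-24 and wrt-3 among them. grl-23 ran from 0.0707 to 0.332 CPM in S and was at 0 CPM in every F library. It passed the filter only through libraries with ivermectin. grd-4 ran from 0.915 to 1.91 CPM in S and from 0.095 to 0.624 CPM in F. grl-24 ran from 1.72 to 7.67 CPM in S and from 0.535 to 2.28 CPM in F. grl-28 ran from 0.285 to 0.577 CPM in F, and S replicate 3 lay within that range at 0.498 CPM. The calls of grd-4 and grl-23 were lost when 6 and 5 of the 8 libraries, respectively, were each omitted. grl-2, a gene of the excretory duct and pore, grl-5 and the glial gene grl-18 had no call in this comparison and stayed at or below 4.28 CPM without ivermectin.

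**Figure D2:**
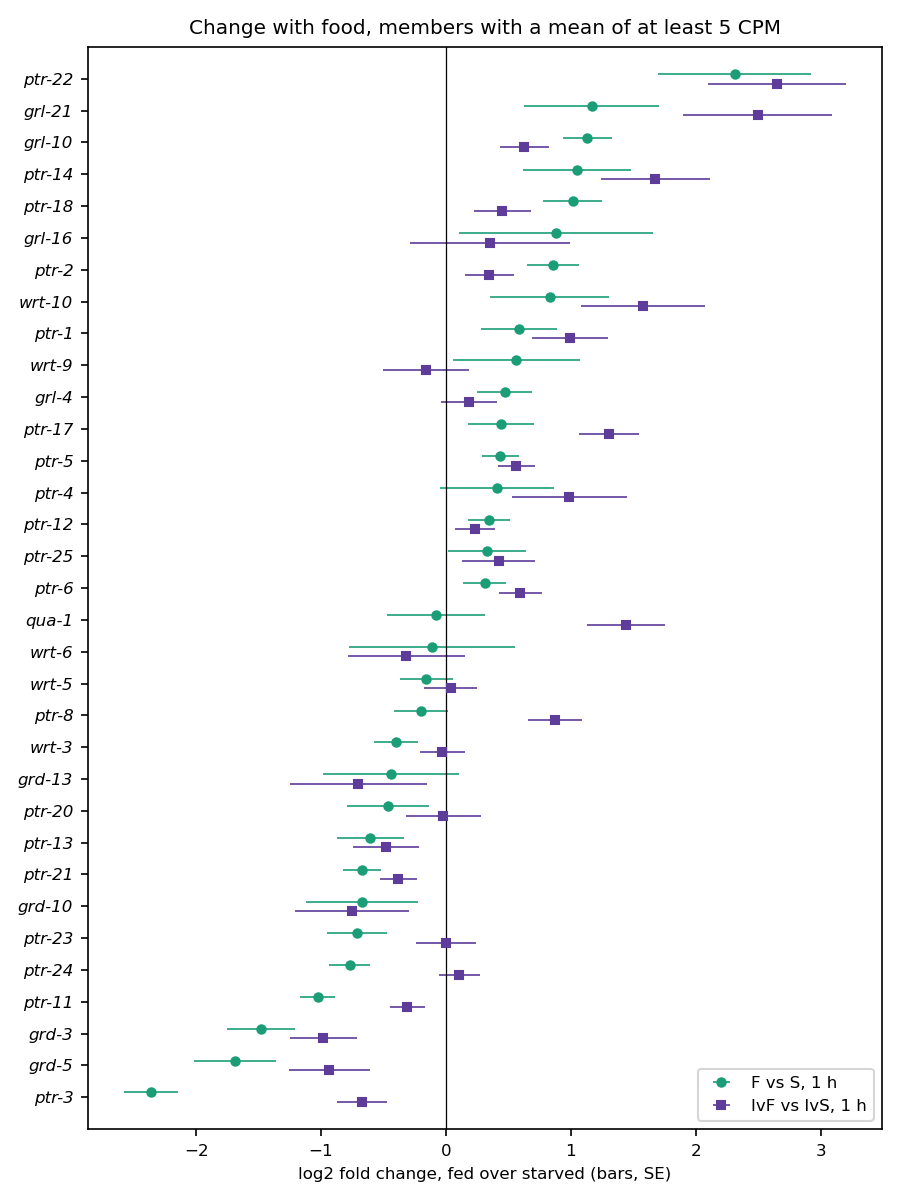
Change with food on the log2 scale (x axis, fed over starved; bars are SE) at 1 h without ivermectin (circles) and with it (squares) for the 33 members that averaged at least 5 CPM. ptr-3 lies furthest to the left in F against S, at -2.36, and ptr-22 is the furthest right in both, at 2.31 and 2.65.

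Between IvF and IvS at 1 h, 6 of the 24 ptr genes were higher in IvF, 1 was lower and 17 did not pass. Of the 81 genes 10 passed (12.3%), 8 higher and 2 lower, beside 5.56% of all genes tested (3.27% higher and 2.29% lower). Among genes that averaged at least 5 CPM, tested with that filter, 13 of 33 passed (39.4%), beside 10.0% of all such genes. The 10 called in the fit of all genes comprised 7 ptr genes, of which 6 rose and ptr-3 fell, with grl-21, qua-1 and grd-3. The count moved between 4 and 11 when single libraries were left out; it was 4 without I_1hr_183, 5 without I_1hr_185 or IF_1hr_181, and 6 without I_1hr_186. Among the 10, the genes whose call held in each alternative and with each library left out were ptr-17 and ptr-22. Starved-to-fed contrasts with and without ivermectin share no library, and their values are given side by side here.

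ptr-22 was at 7.78, 11, 9.40 and 9.93 CPM in IvS and at 58.9, 37.7, 29.1 and 121 CPM in IvF at 1 h. Every IvF library lay above every IvS library (log2 fold change 2.65 ± 0.55, adjusted p = 0.0043, edgeR). Without ivermectin it was at 1.56, 3.22, 0.913 and 6.18 CPM in S and at 4.28, 5.64, 38.2 and 13.7 CPM in F (2.31 ± 0.61, adjusted p = 0.0056, edgeR), and without F replicate 3 the call was lost (1.34, adjusted p = 0.059, edgeR). The difference between the 2 food effects was -0.34 ± 0.81 (SE). At 24 h ptr-22 was at 14, 5.00, 15.5 and 5.82 CPM in IvS and at 40.8, 28.3, 29.8 and 38.1 CPM in IvF, again without overlap, but the change of 1.69 ± 0.54 did not pass over all genes (adjusted p = 0.27, edgeR).

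ptr-17 was at 7.35, 8.57, 8.66 and 9.24 CPM in IvS and at 17.9, 19.9, 18.3 and 29.1 CPM in IvF at 1 h (1.31 ± 0.24, adjusted p = 0.0010, edgeR). Without ivermectin it ran from 3.07 to 4.72 CPM in S and from 2.23 to 10.1 CPM in F and did not pass. The difference between its food effects without and with the drug did not pass either (-0.86, adjusted p = 0.14, edgeR). With the replicate number as a block that difference passed (-0.98, adjusted p = 0.037, edgeR). ptr-14 was at 16.8, 25.3, 21.5 and 37 CPM in IvS and at 121, 31.8, 31.3 and 130 CPM in IvF, so IF_1hr_181 and IF_1hr_186 held the high values and the other 2 lay within the IvS range (1.68 ± 0.44, adjusted p = 0.022, edgeR). Without IF_1hr_181 its adjusted p was 0.12 and without IF_1hr_186 it was 0.077 (edgeR). The pseudogene grd-17 had its highest values in F replicate 3 (37.5 CPM) and in IF_1hr_181 (22.6 CPM) and IF_1hr_186 (17.1 CPM), and it was at 3.45 CPM or less in the other 21 libraries. Those 3 libraries also held the highest values of ptr-14, at 161, 121 and 130 CPM. In F against S, grd-17 passed (5.73 ± 1.70), but not without F replicate 3 (adjusted p = 0.26, edgeR). ptr-5, ptr-6 and ptr-8 rose by 0.56, 0.60 and 0.88 on the log2 scale, without overlap between IvF and IvS. The 2 conditions did not overlap for 12 of the 81 genes, beside 16.2% of all genes.

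grl-21 was at 0.685, 1.80, 4.47 and 3.17 CPM in IvS and at 6.02, 8.72, 31.3 and 14.1 CPM in IvF at 1 h, without overlap (2.50 ± 0.60, adjusted p = 0.012, edgeR). The call was lost without I_1hr_183 or without IF_1hr_185, with an adjusted p of up to 0.061 in edgeR. In F it was at 37.5, 53.6, 45.4 and 17.9 CPM against 19.4, 33.6, 3.98 and 6.06 CPM in S, where the ranges overlapped (1.17 ± 0.54, adjusted p = 0.11, edgeR). wrt-10, a warthog gene, was at 2.74, 2.33, 3.33 and 3.86 CPM in IvS and at 4.42, 5.52, 17.2 and 11.5 CPM in IvF; it did not overlap and did not pass (1.58 ± 0.50, adjusted p = 0.069, edgeR).

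qua-1, whose product is needed for molting, was at 20.0, 12.6, 13 and 13 CPM in IvS and at 65.1, 22.8, 32.2 and 33.9 CPM in IvF at 1 h, without overlap (1.44 ± 0.31, adjusted p = 0.0055, edgeR). Without ivermectin it was between 1.77 and 5.49 CPM in S and between 1.87 and 4.14 CPM in F, below every library with the drug. The difference between the food effects on qua-1 without and with ivermectin did not pass (-1.52, adjusted p = 0.055, edgeR). With the replicate number as a block that difference passed (-1.42, adjusted p = 0.0086, edgeR). At 24 h qua-1 was at 18.9 to 31.5 CPM in IvS and at 27.8 to 46.4 CPM in IvF.

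**Figure D3:**
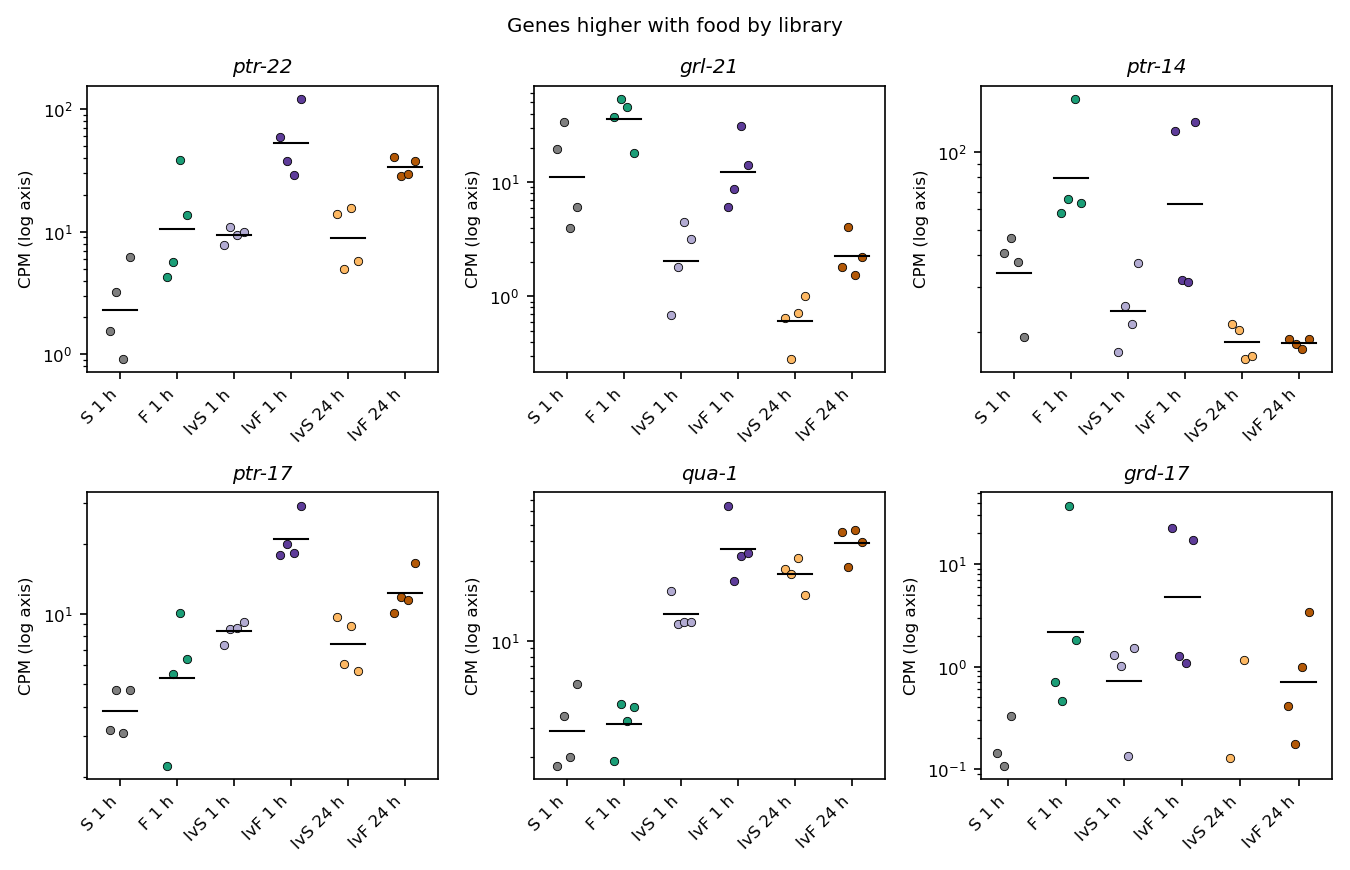
CPM on a log axis in each library (points) for 6 genes that were higher with food in at least 1 comparison, by condition; horizontal lines are geometric means, drawn where all 4 libraries were above 0 (libraries at 0 are not drawn). ptr-22 and qua-1 are higher in IvF than in IvS in every library at 1 h, while grd-17 is at 17.1 to 37.5 CPM in F replicate 3, IF_1hr_181 and IF_1hr_186.

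The food effects with and without ivermectin differed for 4 of the 81 genes (4.94%), all patched-related and all with the more negative effect without the drug, beside 10.3% of all genes tested and 5.02% in that direction. The difference is the F minus S change less the IvF minus IvS change. It was -1.69 ± 0.29 for ptr-3 (adjusted p = 3.7e-04, edgeR), -1.07 ± 0.30 for ptr-8, -0.88 ± 0.23 for ptr-24 and -0.72 ± 0.20 for ptr-11. ptr-8 was at 48.5, 62.1, 40.1 and 71.6 CPM in S and at 36.1, 45.5, 79.1 and 57.8 CPM in F, with full overlap, whereas it was at 38.1, 41.5, 46.3 and 37.7 CPM in IvS and at 93.7, 59.1, 52.9 and 92.5 CPM in IvF. The exons of ptr-8 overlap the antisense gene sra-10. ptr-24 in IvS ran from 89.3 to 93.5 CPM and in IvF from 89.8 to 106 CPM, with overlap, and it did not pass there.

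After 24 h no member passed between IvF and IvS, beside 0.777% of all genes, and 14 of the 81 had an unadjusted p below 0.05. DESeq2 and the edgeR exact test also called 0, while 3 passed with only these conditions in the fit. The food effect at 24 h differed from that at 1 h for none of the 81 in edgeR, beside 0.971% of all genes, with 4 at an unadjusted p below 0.05 and 0 called by DESeq2.

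A set of groundhog genes was lower at 24 h than at 1 h in ivermectin. No culture without ivermectin was sampled at 24 h, so time in the drug, larval age and length of starvation cannot be told apart. Of the 81, 4 genes were lower at 24 h than at 1 h in IvS (4.94%) and none was higher, beside 5.24% of all genes in either direction and 3.17% lower; DESeq2 called 7. In IvF 9 were lower (11.1%) and none was higher, beside 9.92% and 5.72% lower. grd-3, grd-5, grd-10 and grd-13 were lower in both. grd-13 was at 15.1, 54.8, 43.8 and 72.6 CPM in IvS at 1 h and at 3.93, 6.35, 7.96 and 6.24 CPM at 24 h (log2 fold change -2.84 ± 0.60, adjusted p = 0.0056, edgeR). In IvF it was at 12.0, 35.5, 36.5 and 33.0 CPM at 1 h and at 3.57, 4.36, 5.87 and 6.16 CPM at 24 h, without overlap (-2.55 ± 0.60).

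grd-5 was at 31.6, 57.8, 53.1 and 62.6 CPM in IvS at 1 h and at 9.33, 17.9, 14.4 and 16 CPM at 24 h (-1.75 ± 0.34). In IvF it went from 17.3, 33.5, 31.6 and 26.3 CPM to 8.06, 10.8, 8.23 and 9.84 CPM (-1.58 ± 0.34). grd-10 in IvS went from 37.6, 74.4, 74.6 and 103 CPM to 19.3, 22.8, 19.0 and 21.7 CPM (-1.72 ± 0.47, adjusted p = 0.031, edgeR), and that call was lost when 7 of the 8 libraries were each omitted in turn. In IvF its call was lost without a filter and when 6 of the 8 libraries were each omitted. grd-3 in IvS went from 19.5, 48.1, 38.1 and 54.4 CPM to 12.5, 14.2, 16.2 and 14.8 CPM (-1.40 ± 0.27). In all 4 genes IvS at 24 h was below IvS at 1 h without overlap, as 9 of the 81 genes and 20.6% of all genes did not overlap in either direction. At 24 h grd-3 ran from 7.39 to 12.0 CPM in IvF, below the 12.5 to 16.2 CPM of IvS without overlap, and did not pass between them (-0.77 ± 0.28, adjusted p = 0.40, edgeR).

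The same 4 genes had their highest single values in S without ivermectin, and S replicate 4 stood below the other 3 S libraries. grd-5 was at 282, 179, 213 and 81.0 CPM in S and at 86.2, 69.3, 78.5 and 44.9 CPM in F (-1.69 ± 0.33, adjusted p = 3.2e-04, edgeR). grd-3 was at 97.0, 94.9, 89.3 and 50.2 CPM in S and at 36.8, 42.1, 38.1 and 22.7 CPM in F, without overlap (-1.48 ± 0.27). grd-10 was at 317, 197, 252 and 31.7 CPM in S and at 211, 160, 156 and 76.9 CPM in F, and grd-13 at 118, 105, 97.4 and 8.24 CPM and at 102, 86.4, 69.5 and 30.8 CPM. With all libraries neither grd-10 nor grd-13 passed in F against S. Without S replicate 4, grd-10 passed, at -1.02 on the log2 scale (adjusted p = 0.012, edgeR), and grd-13 did not, at -0.80 (adjusted p = 0.15, edgeR). F replicate 4, the lowest F library for all 4 genes, stayed in that fit, which favours a lower level in F. In the RefSeq annotation of WBcel235, grd-13, grd-3 and grd-10 are consecutive protein-coding genes on chromosome IV, while grd-5 is on chromosome V. Intestine markers also fell with time, from a summed 1605 to 2614 CPM in IvS at 1 h to 645 to 781 CPM at 24 h. Pharynx markers fell from 4655 to 5882 CPM to 2260 to 2963 CPM, and body wall muscle markers from 6375 to 9723 CPM to 4169 to 5370 CPM. Neuron markers were at 544 to 575 CPM and 498 to 526 CPM. Epidermis markers were at 592 to 808 CPM and 576 to 654 CPM, and glia markers at 70.5 to 82.9 CPM and 66.9 to 77.5 CPM, both with overlap. Of the 4 glia markers listed 3 were found, and the sum includes ptr-10, itself a member. The part of these markers in the groundhog values was not tested.

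**Figure D4:**
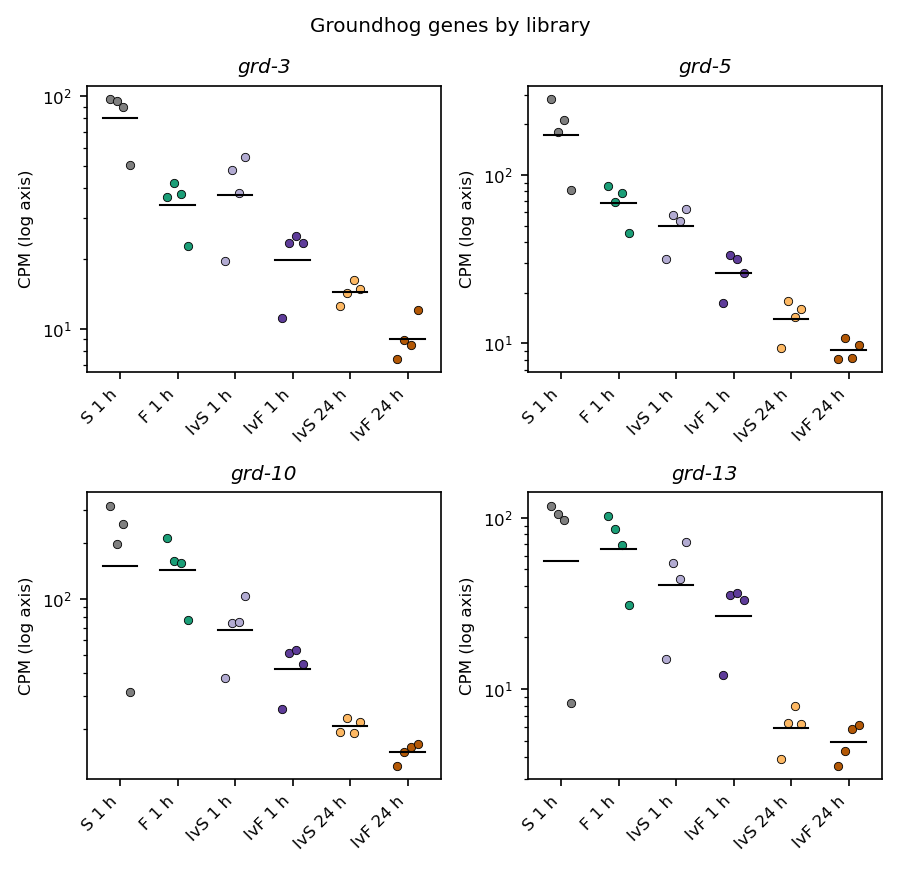
CPM on a log axis in each library (points) for grd-3, grd-5, grd-10 and grd-13, by condition; the horizontal lines are geometric means of 4 libraries. In ivermectin the mean of each gene is lower at 24 h than at 1 h, and the lowest S library, at 8.24 CPM for grd-13, is replicate 4.

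The other 5 genes that fell with time in IvF were grl-21, ptr-14, ptr-12, ptr-17 and ptr-5. grl-21 went from 6.02, 8.72, 31.3 and 14.1 CPM to 1.81, 4.07, 1.54 and 2.20 CPM (-2.61 ± 0.59, adjusted p = 0.0053, edgeR), and ptr-14 to 18.9, 18, 17.1 and 18.8 CPM (-2.17 ± 0.45). Both had been higher in IvF than in IvS at 1 h. ptr-12 was at 60.8, 76.1, 74.5 and 73.7 CPM at 1 h and at 36.5, 39.7, 44.2 and 39.1 CPM at 24 h (-0.87 ± 0.16, adjusted p = 7.9e-04, edgeR). ptr-17 and ptr-5 fell by 0.81 and 0.55 on the log2 scale. In this comparison the same-numbered libraries varied together, and with the replicate number as a block 11 genes passed, with grl-4 (-0.55, adjusted p = 0.043, edgeR) and ptr-13 (0.66, adjusted p = 0.0087, edgeR) added.

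Between libraries with and without ivermectin 44 genes passed in F against IvF (54.3%, 15 higher and 29 lower in F), beside 60.8% of all genes (27.7% higher and 33.1% lower), and 46 in S against IvS (56.8%, 20 higher and 26 lower in S), beside 57.3% (29.1% higher and 28.2% lower). Both comparisons carry the change of replicate series along with the drug. Genes lower without ivermectin included wrt-6 and wrt-9, at 1.14 to 2.04 CPM and 0.566 to 1.60 CPM in S and at 8.78 to 25.1 CPM and 9.52 to 17 CPM in IvS (log2 fold changes -2.90 ± 0.57 and -3.35 ± 0.44). ptr-21 was at 105 to 116 CPM in IvS, above 29.5 to 67.7 CPM in S (-0.92 ± 0.15). In the other direction, wrt-3 was at 12.5 to 19.1 CPM in S and 7.72 to 9.93 CPM in IvS (1.33 ± 0.18), and wrt-5 at 15.8 to 33.5 CPM and 12.2 to 15.7 CPM (1.18 ± 0.21). In F against IvF wrt-6 and wrt-9 were also lower in F, together with qua-1 (-3.35 ± 0.36), grl-17 (-3.94) and grl-20 (-3.69), whereas grl-15 (1.99), grl-4 (1.28) and hog-1 (1.16 ± 0.26) were higher in F. Also lower in F were grl-25 (-4.97) and grd-11 (-3.14), but with the share of reads outside features in the model neither passed (adjusted p = 0.096 and 0.12, edgeR). Every library without ivermectin was below 1 CPM for grl-17, grl-20, grl-25 and grd-11. In F, grl-17 ran from 0.178 to 0.345 CPM and grl-20 from 0.095 to 0.446 CPM. These 4 genes passed the filter only through libraries with the drug, which favours a lower level without it. The same held for grd-6, grd-8, grl-22, grl-23, grl-27, grl-29, grl-31, wrt-2 and wrt-8, all counted as lower in F. The counts of genes lower without the drug thus include genes kept by the filter in this way. In S against IvS grl-17 (-2.45), ptr-19 (-2.03) and grl-16 (-1.73) were lower in S, and the call of grl-16 was lost when 7 of the 8 libraries were each omitted in turn. Marker sums were higher with the drug for epidermis and pharynx, as given above. Body wall muscle markers were at 1838 to 3379 CPM without it and at 3768 to 9723 CPM with it. Glia markers, ptr-10 included, were at 19.4 to 37.4 CPM and 53.2 to 85.7 CPM. Sums overlapped for neurons (459.8 to 681.5 CPM without it and 471.7 to 574.8 CPM with it) and intestine (864 to 1981 CPM and 645 to 2614 CPM). So did those for adult and germ line products (46.8 to 99.5 CPM and 11.5 to 70.04 CPM) and for early embryo. The part of the marker sums in these changes was not tested. With the share of reads outside features in the model, 37 genes passed in F against IvF, 21 higher and 16 lower in F. In S against IvS 30 passed, 19 higher and 11 lower in S. The share itself ran from 2.67 to 3.70% without ivermectin and from 4.39 to 11.3% with it, without overlap. These fits, those of grl-25 and grd-11 among them, therefore cannot part the drug from that share.

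The 48 genes with means under 5 CPM followed the share of reads outside features. Their summed level was 35.2 to 107 CPM in the 8 libraries without ivermectin and 43.7 to 248 CPM in the 16 with it. Among those 16, 42 of the 48 (87.5%) had their highest value in the 3 libraries with the largest share of reads outside features, which were IF_24hr_186 (11.3%), IF_1hr_186 (9.52%) and I_24hr_185 (8.39%). The same held for 80.4% of all genes under 5 CPM, for 42.4% of the 33 members that averaged at least 5 CPM and for 24.8% of all such genes. Exons of 25 of these 48 genes overlap another gene, so their low counts cannot be assigned to a strand. The part that reads outside features had in these levels was not tested.

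**Figure D5:**
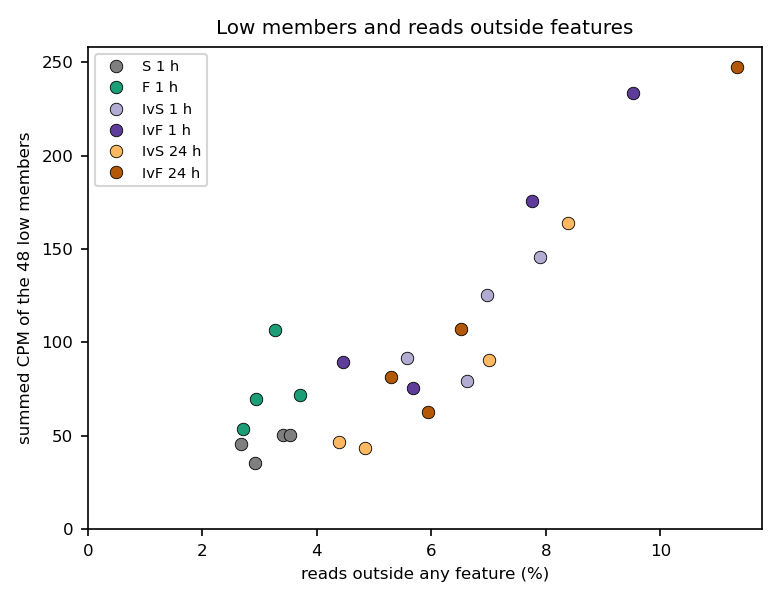
Summed CPM of the 48 genes with means under 5 CPM (y axis, from 0) against the share of reads outside any feature (x axis, %), with 1 point per library and colours for conditions. The ivermectin libraries reach 248 CPM and the others stay at or below 107 CPM.

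Other genes of molting were read from the same fit. Of a list of 36 molting genes without members of these families, 35 were tested, and 10 passed in F against S (28.6%), 5 higher and 5 lower, beside 29.0% of all genes. Those that passed included mlt-10 (1.42 ± 0.25), myrf-1 (1.15 ± 0.15), a transcription factor of the molting cycle, and nhr-23, a nuclear receptor that drives molting genes (0.78 ± 0.22), against peb-1 (-1.82 ± 0.25) and mlt-7 (-0.92 ± 0.18). In IvF against IvS at 1 h 3 passed (8.57%, beside 5.56% of all genes), noah-1 (1.79 ± 0.53) and mlt-10 (0.78 ± 0.20) up and mlt-7 down by 0.75 ± 0.17 on the log2 scale. nhr-23 had a change of -0.04 ± 0.19 there, and the other nuclear receptor of the list, nhr-25, one of 0.15 ± 0.13. At 24 h no gene of the list passed in edgeR, beside 0.777% of all genes, and 8 had an unadjusted p below 0.05. Over time mlt-10 was higher in IvS (0.85 ± 0.20) and myrf-1 lower in IvF (-0.52 ± 0.15). Between libraries with and without ivermectin 16 of the 35 passed in F against IvF (45.7%, beside 60.8% of all genes), 6 higher and 10 lower in F, and 20 in S against IvS (57.1%, beside 57.3%), 9 higher and 11 lower in S.

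A list of 11 patched relatives and other genes of the Hedgehog route includes the patched genes ptc-1 and ptc-3, the sterol transporters ncr-1 and ncr-2 and tra-1, a transcription factor of the GLI zinc-finger family, and all were tested. In F against S 2 passed (18.2%, beside 29.0% of all genes), with tra-1 higher (0.62) and ncr-2 lower (-1.58 ± 0.25). In IvF against IvS at 1 h 1 passed (9.09%, beside 5.56%), ptc-3 (1.08 ± 0.24, adjusted p = 0.0057, edgeR), at a mean of 223 CPM in IvF. It was lower at 24 h in IvF (-0.75 ± 0.24). ptc-1 had changes of -0.40 ± 0.17 and -0.03 ± 0.17 with food without and with ivermectin, and neither passed. At 24 h none of the 11 passed in edgeR and none had an unadjusted p below 0.05. In F against IvF 6 of the 11 were lower in F (54.5%, beside 33.1% of all genes lower in F), and in S against IvS 4 were lower in S (36.4%, beside 28.2%), with none higher.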

How the data were processed

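The deposited files hold read counts per gene for 24 libraries, made by the authors from mRNA-seq reads aligned with Bowtie (version 1.1.2) to genome WS210 with WS220 transcripts and counted with HTSeq. The HTSeq version and mode are not given in the sources used here, and the library kit does not keep strand. Symbols came from WormBase names, which matched 43592 of 44968 features; lines of reads outside features and other totals were left out of library sizes. CPM values were computed from the deposited counts, over the reads on genes.

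Genes above 1 CPM in at least 4 of 24 libraries were tested in R 4.3.3 with edgeR 4.0.16 (TMM, robust quasi-likelihood fit of 6 condition means, Benjamini-Hochberg over all genes). Log2 fold changes come from this fit of the deposited counts. The interactions are differences of fold changes. Alternatives were the exact test, DESeq2 1.42.0, other size factors, other filters, a replicate block, a covariate for reads outside features, fewer libraries in the fit, and each library left out. Named genes were a fixed set of 13 members, up to 8 members per direction and comparison with at least 5 CPM, the 5 most abundant, and leading list genes. The members and lists were chosen with earlier results of these data known. The same-numbered libraries of IvF at 24 h and 1 h deviated together (correlations 0.16 to 0.75 over the 4 numbers), and pairing comes from these correlations, not from the labels. No 2 libraries were identical. Gene sequences were not used here. The fit was run on simulated counts for F against S, with 200 genes changed by 1.5 on the log2 scale. It recovered 180 of them and called 11 other genes. The simulation gave every gene the same spread (dispersion 0.05) and set no other difference between conditions. It therefore does not measure the error rates of the comparisons above.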

Additional observations from a re-analysis of the deposited data

Results flagged for a closer look

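In 252 tests of 42 genes within a condition, 22 single libraries stood apart from the other 3 by Dixon's criterion, where chance alone gives about 1 in 20. S replicate 4 was low for grd-3 (50.2 CPM) and high for grl-7 (2.75 CPM). F replicate 3 was high for grd-17 (37.5 CPM) and ptr-14 (161 CPM), F replicate 4 was high for grl-10 (14.7 CPM) and low for wrt-3 (10.2 CPM), and F replicate 1 was low for ptr-3 (7.85 CPM). IF_1hr_181 was low for grd-3 (11.1 CPM), grd-13 (12.0 CPM) and ptr-12 (60.8 CPM) and high for ptr-23 (189 CPM). IF_1hr_185 was high for hog-1 (3.27 CPM). IF_24hr_186 was high for grl-20 (7.91 CPM), ptr-11 (49.9 CPM) and wrt-6 (20.4 CPM), and it had the largest share of reads outside features (11.3%). I_24hr_185 was high for grd-17 (1.16 CPM), grl-25 (7.13 CPM) and ptr-10 (2.98 CPM), and I_1hr_185 was low for ptr-11 (40.2 CPM). I_24hr_183 was low for ptr-4 (1.07 CPM). I_1hr_181 was high for qua-1 (20.0 CPM) and I_24hr_181 for ptr-21 (115 CPM).

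The food effect without ivermectin differed from that with it, by the interaction term in edgeR, for ptr-3 (-1.69), ptr-8 (-1.07), ptr-24 (-0.88) and ptr-11 (-0.72), on the log2 scale.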

How the results depend on the processing

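Of 17 genes called in F against S, 10 kept the call in every alternative and left-out fit that tested them, as did 2 of 10 in IvF against IvS at 1 h, 3 of 4 and 6 of 9 over time in IvS and IvF, 25 of 44 and 23 of 46 in F against IvF and S against IvS, and 2 of 4 in the food by ivermectin difference. Each called gene kept its sign in these fits, except wrt-8 in F against IvF, which turned from -2.45 to 0.09 with reads outside features in the model (adjusted p = 0.94, edgeR). With single libraries left out the counts ran from 13 to 18 (F against S), 4 to 11 (IvF against IvS at 1 h), 3 to 5 and 7 to 9 (time in IvS and IvF), 40 to 45 (F against IvF), 34 to 43 (S against IvS) and 3 to 5 (food by ivermectin), and they stayed at 0 for IvF against IvS at 24 h and food by time.

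Without a filter IvF against IvS at 1 h gave 6 genes. With the conditions compared alone in the fit, IvF against IvS at 24 h gave 3 and time in IvS 8. DESeq2 gave 7 for time in IvS and 7 for food by ivermectin, and the covariate for reads outside features gave 7 for the latter and 30 for S against IvS. A filter at a mean of 5 CPM left 33 of the 81 members to be tested. Of these 33, F against IvF gave 19, as many as in the main fit. S against IvS gave 20, where the main fit had 24. The remaining calls of the main fit, 25 and 22 respectively, were among the 48 members that this filter removed. What moved the other counts, and the step from 24 to 20, was not tested. DESeq2 size factors moved the median of all genes from -0.13 to -0.26 in F against IvF and from -0.04 to -0.18 in S against IvS.

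With the replicate number as a block the counts were 23 in F against S, 13 in IvF against IvS at 1 h, 2 in IvF against IvS at 24 h (grd-3 among them, -0.76, adjusted p = 0.014, edgeR), 7 in IvS over time, 11 in IvF over time, 6 in food by ivermectin and 0 in food by time. Outside IvF over time the correlations did not settle whether same-numbered samples were paired, since a low correlation cannot exclude a shared culture. At least 1 number in each of those comparisons had a correlation below 0.1 (0.06 for number 3 in F against S). Best with its own number held for 3 of 4 in F against S, 2 of 4 in each IvF against IvS comparison and 0 of 4 in IvS over time. No paired analysis was possible for F against IvF and S against IvS because these libraries share no numbers.

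With 4 libraries a condition, an exact permutation test cannot go below p = 0.0286.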
